A study of Mus musculus with 10 samples.

Results

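The genes of creatine, calcium and glycerol futile cycling were examined by RNA-seq in inguinal white adipose tissue, the subcutaneous fat of the groin. They were chosen by name as Gatm, Gamt, Slc6a8, Ckb, Alpl, Atp2a2 and glycerol kinase. All 7 were found among the 40501 gene identifiers of the count table, with 1 identifier each. Glycerol kinase is Gyk in the list of names and Gk in the table, and RefSeq gives Gyk as another name of Gk. The samples were 5 PexRAP-AKO libraries (replicates 1, 2, 3, 5 and 6) from Cre-positive male mice and 5 Control libraries (replicates 2, 3, 5, 7 and 8) from Cre-negative male mice. Both groups had a C57/BL6J background and ate chow. The labels give 8 weeks both as the time on chow and as the age of the mice, so the age at harvest is uncertain. The labels name neither the Cre driver nor the deleted exons. PexRAP, encoded by Dhrs7b, is a reductase of ether lipid synthesis, and the comparison asks how its loss in fat alters transcript levels there.

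A futile cycle spends ATP and releases the energy as heat without net product. In the creatine cycle of thermogenic fat, creatine kinase B phosphorylates creatine, and the alkaline phosphatase encoded by Alpl hydrolyses the phosphocreatine. In the calcium cycle, the pump SERCA2, encoded by Atp2a2, returns calcium to the endoplasmic reticulum after its release. In the glycerol lipid cycle, glycerol kinase lets the fat cell reuse the glycerol of lipolysis for new triglyceride. These cycles are known as routes of heat production beside the uncoupling protein UCP1 of brown and beige fat cells.

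Levels are given in CPM, the reads of a gene over the library size after TMM scaling, which corrects for library composition. Gk spread widely over the libraries and followed Ucp1, the classic marker of brown and beige fat cells. The promoters of Gk and Ucp1 are shown for that likeness, and the promoter of Ckb as that of the central enzyme of the creatine cycle. They are from RefSeq (GRCm38.p6), run from 250 bases before to 50 bases after the gene's start, and are on the gene's own strand. The Gk window is chrX:85776770-85777069 (minus strand), the Ucp1 window is chr8:83290098-83290397 (plus strand) and the Ckb window is chr12:111672289-111672588 (minus strand). Capitals mark TGACG, the core of the cAMP response element, in Gk and Ucp1, and TATAAA, the TATA box, in Ckb.
Gk: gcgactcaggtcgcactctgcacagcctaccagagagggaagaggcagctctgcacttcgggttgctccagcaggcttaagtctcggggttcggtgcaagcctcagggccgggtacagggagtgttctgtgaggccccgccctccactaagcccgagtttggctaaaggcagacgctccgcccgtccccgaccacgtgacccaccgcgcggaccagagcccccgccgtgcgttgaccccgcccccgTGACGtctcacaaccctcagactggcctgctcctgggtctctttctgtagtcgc
Ucp1: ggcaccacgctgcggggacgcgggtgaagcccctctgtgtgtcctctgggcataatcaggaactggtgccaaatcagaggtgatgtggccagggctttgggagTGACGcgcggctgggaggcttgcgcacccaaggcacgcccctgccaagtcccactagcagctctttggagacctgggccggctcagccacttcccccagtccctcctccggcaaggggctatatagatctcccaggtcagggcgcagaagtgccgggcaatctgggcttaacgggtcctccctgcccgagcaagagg
Ckb: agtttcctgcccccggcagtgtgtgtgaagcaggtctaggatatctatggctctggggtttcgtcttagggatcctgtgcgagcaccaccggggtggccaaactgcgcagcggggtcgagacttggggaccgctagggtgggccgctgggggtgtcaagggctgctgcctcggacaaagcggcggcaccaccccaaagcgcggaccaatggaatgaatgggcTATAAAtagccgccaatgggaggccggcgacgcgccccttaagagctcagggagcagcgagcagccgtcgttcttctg

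The core TGACG began at position -4 from the start in Gk and at position -147 in Ucp1, and TATAAA began at position -28 in Ckb. Of 32851 promoter windows of this length in RefSeq, 20.8% held TGACG on either strand and 13.6% held TATAAA, so neither match is rare. The full cAMP response element TGACGTCA (in 1.79% of windows), the DR1 element of PPAR receptors (0.0396%) and the element TCAAGGTCA of oestrogen-related receptors (0.423%) were not found in these 3 windows. They were also not found in the windows of Gatm, Gamt and Alpl, the other members with a window. In 1 of the windows of Alpl both TGACG and TATAAA occurred. TGACG also lies within TGACGTCA, so those searches overlap. A match to letters is a description and not a binding site.

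The libraries held 11274865 to 19881168 counts. Dhrs7b, the targeted gene, was lower in each PexRAP-AKO library (17.9 to 22.8 CPM) than in each Control library (61.2 to 95.8 CPM), with a log2 fold change of -2.05 (SE 0.12, edgeR adjusted p = 1.54e-05). Adipocyte marker genes were high in both groups, with Fabp4, a fatty acid carrier, at 12300 to 19090 CPM in PexRAP-AKO and 11710 to 15870 CPM in Control. Cfd, the secreted protease adipsin, was at 9355 to 10990 CPM in PexRAP-AKO and 11330 to 15530 CPM in Control, without overlap (log2 fold change -0.47, edgeR adjusted p = 0.135). Of the 10 adipocyte markers, 4 had a positive fold change, against 49.84% of all genes tested. PexRAP-AKO replicate 6 stood apart in lymphocyte markers, which summed to 110.9 CPM there and to 6.70 to 18.5 CPM in the other PexRAP-AKO libraries. It also held the most epithelial marker signal, 74.4 CPM. Control replicate 8 stood apart in skeletal muscle markers, at 2231 CPM in sum. Without both libraries no member was called either.

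No futile cycle gene passed the test between genotypes. The test was edgeR's quasi-likelihood test over 14913 genes with Benjamini-Hochberg adjustment and a threshold of 0.05. It called 15 genes, 0.101% of those tested, and 0 of the 7 members. An unadjusted p under 0.05 was found for 0 of the 7 members and for 15.5% of all genes tested. DESeq2 (with no adjusted p for Alpl) and limma voom called 0 of them as well. All 7 passed the filter on low counts. In 4 members the fold change was positive and in 3 negative, with a median log2 fold change of 0.05 against -0.00065 over all genes tested. The groups overlapped for each of the 7 in CPM. They did not overlap for 3.41% of all genes tested, so 0 of 7 is near that share. The samples are labelled as separate animals only by number, so p-values measure the spread between these libraries.

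**Figure D1:**
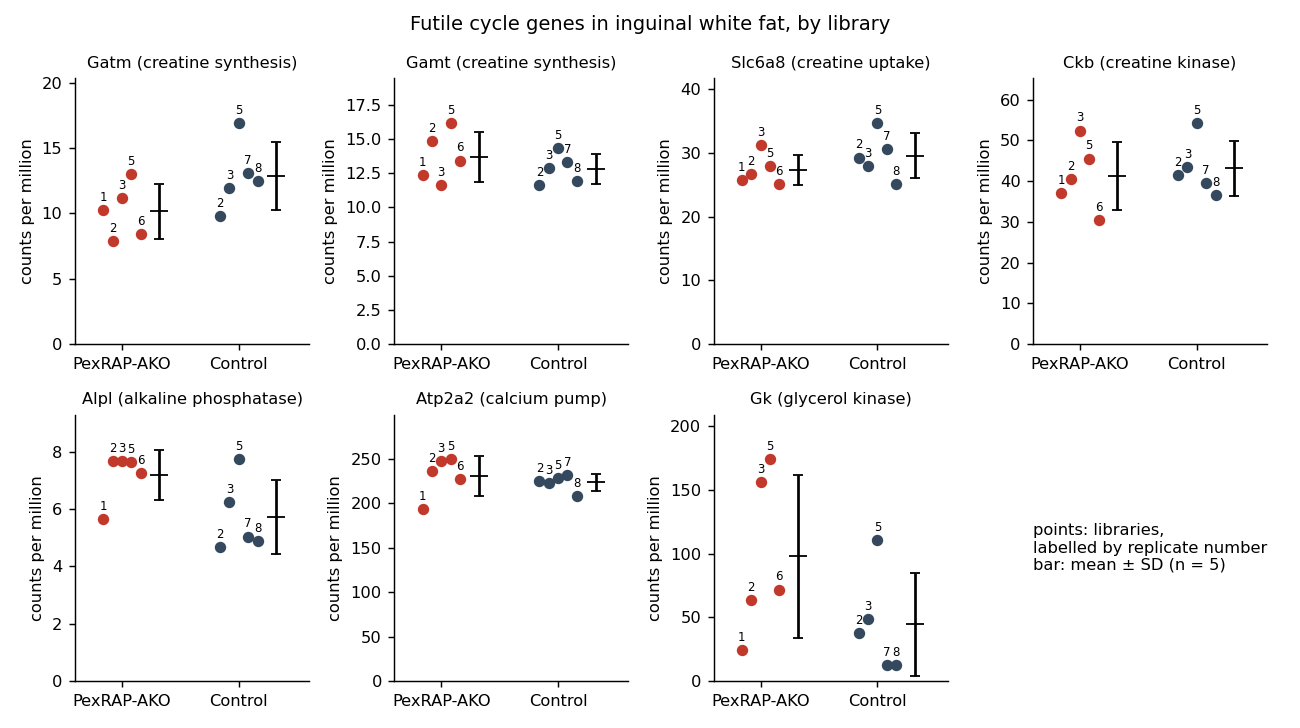
Level of each of the 7 genes in CPM (vertical axis, from 0) in the PexRAP-AKO and Control libraries, with points labelled by replicate number and bars for mean ± SD (n = 5). Gk ran from 24.4 to 173.9 CPM in PexRAP-AKO and from 12.2 to 110.7 CPM in Control, while Atp2a2 stayed between 193.6 and 249.4 CPM in all 10 libraries.

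Creatine is made in a pair of steps. Gatm encodes the first enzyme, which joins arginine and glycine into guanidinoacetate, and lies on chromosome 2 (122594467 to 122611303, GRCm38). Gatm stood at 10.3, 7.87, 11.2, 13.03 and 8.41 CPM in PexRAP-AKO replicates 1, 2, 3, 5 and 6, and at 9.78, 11.9, 16.9, 13.1 and 12.45 CPM in Control replicates 2, 3, 5, 7 and 8. Control replicate 5 was the highest and PexRAP-AKO replicates 2 and 6 were the lowest, but Control replicates 2, 3 and 8 lay within the PexRAP-AKO range. The means were 10.2 ± 2.10 CPM in PexRAP-AKO and 12.8 ± 2.60 CPM in Control (SD, n = 5 each). The log2 fold change was -0.35 (SE 0.17, 95% interval -0.71 to 0.01, edgeR adjusted p = 0.338).

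Gamt encodes the second enzyme, which methylates guanidinoacetate to creatine (chromosome 10, 80258151 to 80261012). Gamt stood at 12.4, 14.8, 11.6, 16.2 and 13.4 CPM in PexRAP-AKO replicates 1, 2, 3, 5 and 6, and at 11.7, 12.8, 14.4, 13.3 and 11.9 CPM in Control replicates 2, 3, 5, 7 and 8. The lowest libraries of both groups were alike and PexRAP-AKO replicate 5 was the highest. Its log2 fold change was 0.09 (95% interval -0.13 to 0.32, edgeR adjusted p = 0.717), with a negative estimate for Gatm and a positive one for Gamt.

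Slc6a8 encodes the transporter that takes creatine up from the blood (chromosome X, 73673150 to 73682502). Slc6a8 stood at 25.7, 26.7, 31.2, 27.9 and 25.15 CPM in PexRAP-AKO replicates 1, 2, 3, 5 and 6, and at 29.3, 27.99, 34.7, 30.7 and 25.15 CPM in Control replicates 2, 3, 5, 7 and 8. The lowest values of the groups were equal to 4 digits and Control replicate 5 was the highest library. The log2 fold change was -0.12 (95% interval -0.31 to 0.08, edgeR adjusted p = 0.583).

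Ckb encodes creatine kinase B, which charges creatine with phosphate (chromosome 12, 111669361 to 111672338). Ckb stood at 37.1, 40.6, 52.4, 45.6 and 30.45 CPM in PexRAP-AKO replicates 1, 2, 3, 5 and 6, and at 41.6, 43.5, 54.3, 39.6 and 36.6 CPM in Control replicates 2, 3, 5, 7 and 8. PexRAP-AKO replicate 3 and Control replicate 5 were the high libraries, and PexRAP-AKO replicate 6 was the lowest. Ckb averaged 41.2 ± 8.34 CPM in PexRAP-AKO and 43.1 ± 6.76 CPM in Control (SD, n = 5 each), with a log2 fold change of -0.07 (SE 0.14, edgeR adjusted p = 0.862). The 95% interval, -0.39 to 0.25, covers from 0.765-fold to 1.19-fold, and the sign turned when PexRAP-AKO replicate 6 or Control replicate 5 was left out (0.02 and 0.03).

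Alpl encodes tissue-nonspecific alkaline phosphatase (chromosome 4, 137741733 to 137796384), and was the member with the fewest reads, 55 to 154 counts a library. Alpl stood at 5.67, 7.67, 7.69, 7.64 and 7.28 CPM in PexRAP-AKO replicates 1, 2, 3, 5 and 6, and at 4.68, 6.24, 7.73, 5.04 and 4.90 CPM in Control replicates 2, 3, 5, 7 and 8. In PexRAP-AKO all but replicate 1 lay near each other, and in Control replicate 5 was as high as they were. The means were 7.19 ± 0.87 CPM in PexRAP-AKO and 5.72 ± 1.28 CPM in Control (SD, n = 5 each). The log2 fold change was 0.32 (SE 0.16, 95% interval -0.02 to 0.66, edgeR adjusted p = 0.357).

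Atp2a2 encodes the calcium pump SERCA2 (chromosome 5, 122453513 to 122502225). Atp2a2 stood at 193.6, 236.3, 247.8, 249.4 and 227.6 CPM in PexRAP-AKO replicates 1, 2, 3, 5 and 6, and at 225.6, 222.6, 228.7, 232.3 and 208.2 CPM in Control replicates 2, 3, 5, 7 and 8. PexRAP-AKO held both the lowest library and the highest ones. Atp2a2 shares 83 exonic bases with Gm43361 on the opposite strand, and the use of strand in counting is not stated. The log2 fold change was 0.05 (95% interval -0.12 to 0.21, edgeR adjusted p = 0.811), the narrowest interval of the 7, and it turned negative when counts were scaled by library total alone (-0.02).

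Gk encodes glycerol kinase (chromosome X, 85701937 to 85776819). Gk stood at 24.4, 63.8, 156.1, 173.9 and 71.8 CPM in PexRAP-AKO replicates 1, 2, 3, 5 and 6, and at 37.8, 48.9, 110.7, 12.4 and 12.2 CPM in Control replicates 2, 3, 5, 7 and 8. PexRAP-AKO replicates 3 and 5 and Control replicate 5 were high, and Control replicates 7 and 8 and PexRAP-AKO replicate 1 were low, so the groups overlapped widely. Gk shares 84 exonic bases with Gm14764. Gk averaged 98.0 ± 64.1 CPM in PexRAP-AKO and 44.4 ± 40.4 CPM in Control (SD, n = 5 each). The log2 fold change of 1.12 was the largest of the 7, but its SE was 0.70 and its 95% interval ran from -0.47 to 2.71 (edgeR adjusted p = 0.488). Without Control replicate 5 the log2 fold change was 1.79 (adjusted p = 0.242), and the adjusted p ran from 0.242 to 0.962 over the 21 alternatives. In bulk tissue, more cells of a type and more RNA per cell cannot be told apart.

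**Figure D2:**
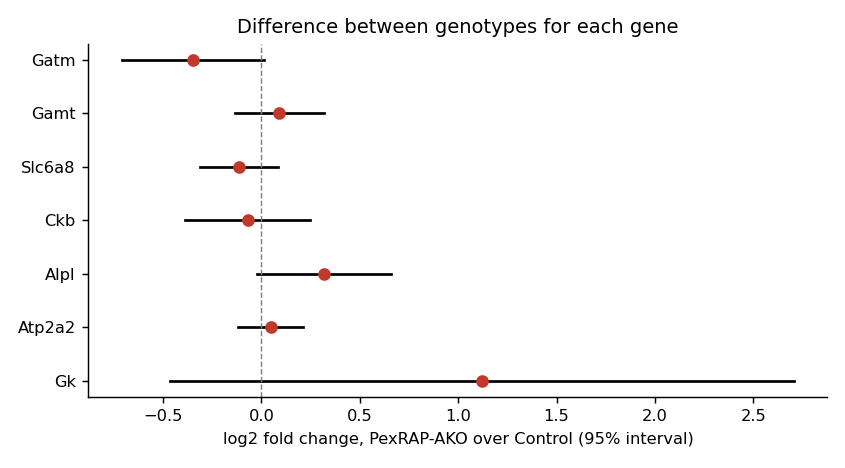
Log2 fold change of PexRAP-AKO over Control (horizontal axis) for each of the 7 genes, with edgeR's 95% interval as a line. All 7 intervals include 0, and the interval of Gk (-0.47 to 2.71) is the widest.

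The spread within groups differed between the members. The pooled SD of log2 CPM within groups was 1.25 for Gk, and 99.4% of the genes tested had a smaller one. It was 0.29 for Gatm, 0.26 for Ckb, 0.25 for Alpl, 0.16 for Gamt, 0.15 for Slc6a8 and 0.11 for Atp2a2, against a median of 0.19 over all genes tested. In PexRAP-AKO the highest library held 7.14 times as much Gk as the lowest, and in Control 9.06 times. Over all 10 libraries this range was 14.2-fold for Gk, 2.15-fold for Gatm and 1.29-fold for Atp2a2.

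Gk followed Ucp1 across the libraries. Ucp1 stood at 94.15, 518.8, 1603, 1371 and 607.7 CPM in PexRAP-AKO replicates 1, 2, 3, 5 and 6, and at 318.6, 381.2, 1159, 40.6 and 28.6 CPM in Control replicates 2, 3, 5, 7 and 8. Ordered from high to low, Gk and Ucp1 put the 10 libraries in the same order, except that PexRAP-AKO replicates 3 and 5 changed places. Over the 10 libraries Pearson's r of log2 CPM was 0.985 and Spearman's rho 0.988. As deviations from the group means r was 0.985, and without the libraries farthest from the median of Ucp1, Control replicates 7 and 8, it was 0.972. Among 9378 genes with a mean of at least 10 CPM, Gk ranked 3 in r with Ucp1, and 0.0213% had a higher one. These correlations describe 10 libraries that share 1 scaling factor each.

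The other members had lower correlations with Ucp1. Pearson's r over the 10 libraries was 0.834 for Alpl (rho 0.842), 0.672 for Atp2a2 (rho 0.709), 0.538 for Ckb (rho 0.661), 0.402 for Gamt (rho 0.297), 0.386 for Slc6a8 (rho 0.418) and -0.022 for Gatm (rho -0.0182). A higher r than that of Alpl was found in 2.34% of the genes, and than that of Ckb in 17.4%. As deviations from the group means r was 0.794 for Alpl, 0.662 for Atp2a2, 0.687 for Ckb, 0.665 for Slc6a8, 0.317 for Gamt and 0.289 for Gatm. Without Control replicates 7 and 8 it was 0.732 for Alpl, 0.919 for Atp2a2, 0.564 for Ckb, 0.557 for Slc6a8, 0.388 for Gamt and 0.4 for Gatm, so the order of the members depends on the libraries and on the centring. The differences between these r values were not tested.

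**Figure D3:**
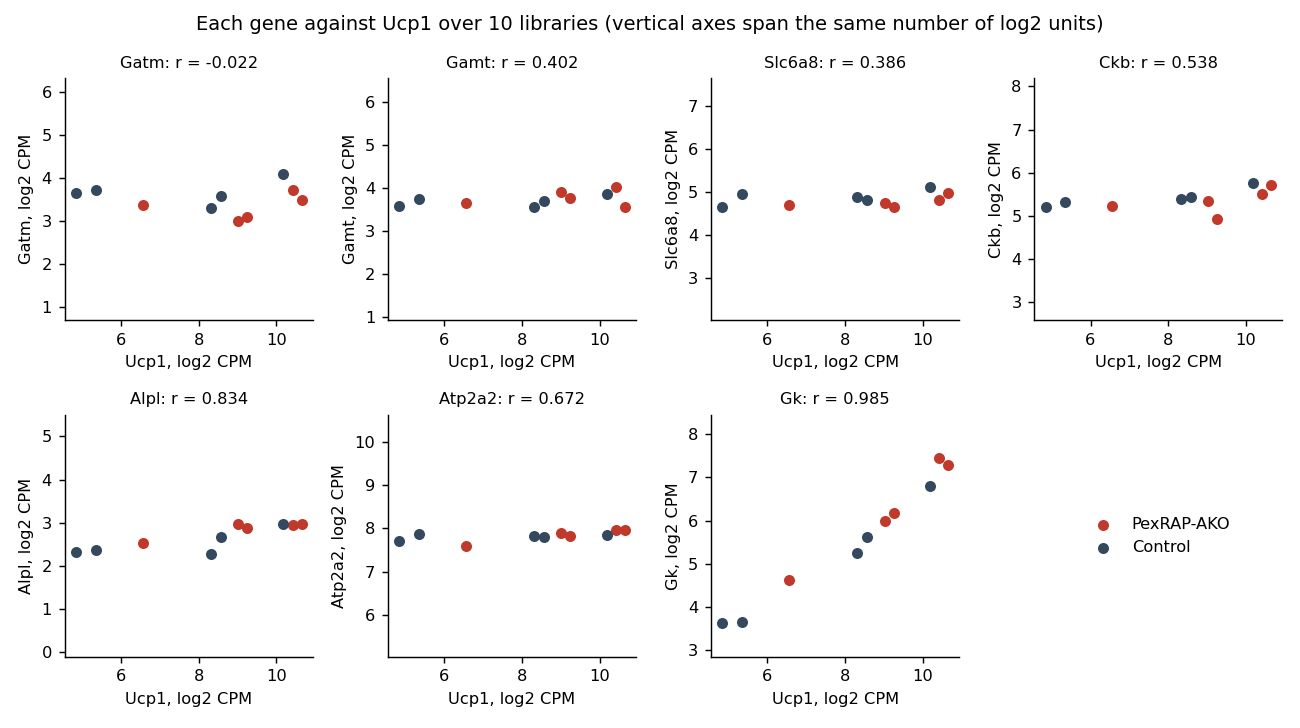
Log2 CPM of each of the 7 genes (vertical axes, all spanning the same number of log2 units) against log2 CPM of Ucp1 (horizontal axis) in 10 libraries, with PexRAP-AKO and Control in different colours. Gk is higher where Ucp1 is higher in both groups (r = 0.985 over all libraries), while Gatm has r = -0.022.

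Markers of brown and beige fat cells were read from a list that holds Ucp1. Of the 18 listed, 17 were tested and 0 passed. Of those tested, 15 had a positive and 2 a negative fold change, with a median log2 fold change of 0.78 against -0.00065 over all genes. Listed genes such as Ucp1, Cidea and Cox7a1 rose and fell together over the libraries, so their signs are not separate observations. Ucp1 itself had a log2 fold change of 1.12 (SE 1.03, 95% interval -1.20 to 3.44, edgeR adjusted p = 0.648). The list summed to 810.4 to 3329 CPM in PexRAP-AKO and 449.9 to 2614 CPM in Control. Zic1, a marker of classical brown fat, was at 0 to 3 counts a library. Cox8b, a respiratory chain subunit, averaged 316 ± 80.0 CPM in PexRAP-AKO and 184 ± 72.5 CPM in Control (SD, n = 5 each), with a log2 fold change of 0.78 (edgeR adjusted p = 0.225). Ppargc1a, a coactivator of mitochondrial genes, was at 0.43 (adjusted p = 0.225) and Ppara, a fatty acid receptor, at 0.54 (adjusted p = 0.244). Prdm16, a regulator of the beige programme, was at -0.31 (adjusted p = 0.214). With the mean log2 CPM of this list as a covariate, the log2 fold change was 0.03 for Gk (edgeR adjusted p = 0.962), 0.11 for Alpl (adjusted p = 0.854) and 0.03 for Gamt (adjusted p = 0.967). It was -0.46 for Gatm (adjusted p = 0.533), -0.26 for Ckb (adjusted p = 0.582) and -0.22 for Slc6a8 (adjusted p = 0.535), each farther from 0 than without the covariate, and -0.03 for Atp2a2 (adjusted p = 0.930). The list holds Cox7a1, Cidea and Ucp1, the 3 genes most like Gk. The value near 0 for Gk was therefore largely set by the choice of covariate.

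The genes with the pattern most like each member were found among 9379 genes by Pearson's r over the 10 libraries. For Gk they were Cox7a1 (0.986), a respiratory chain subunit, Cidea (0.986), a lipid droplet protein of brown fat cells, and Ucp1 (0.985). For Alpl they were Mapkapk3 (0.966), a stress kinase, Pfkl (0.959), a phosphofructokinase of glycolysis, and Nme1 (0.959), a nucleoside diphosphate kinase. For Atp2a2 they were Snrpd3 (0.967), a splicing protein, Wdr73 (0.937) and Shb (0.926), an adaptor protein.

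For Ckb the most alike were Nov (0.965), a secreted matrix protein, Naglu (0.943), a lysosomal enzyme, and Mtmr10 (0.940). For Slc6a8 they were Akt1 (0.882), the insulin signalling kinase, Stxbp5 (0.865) and Slc6a6 (0.851), the taurine transporter. For Gatm they were Vamp4 (0.923), a vesicle fusion protein, Tmod2 (0.916), an actin capping protein, and Lifr (0.914), a cytokine receptor. For Gamt they were Hspa8 (0.907), a chaperone, Pofut1 (0.9), a fucosyltransferase, and Pex10 (0.888), a peroxisomal import protein. None of the 3 genes nearest to Ckb, Slc6a8, Gatm, Gamt, Alpl or Atp2a2 was a brown or beige marker of the list.

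Among the 21 pairs of members, Alpl and Gk were most alike by Pearson's r (r = 0.869, rho = 0.818), followed by Ckb and Slc6a8 (r = 0.834, rho = 0.818). As deviations from the group means their order was reversed, with r = 0.819 for Alpl and Gk and 0.846 for Ckb and Slc6a8. The synthesis enzymes Gatm and Gamt had r = 0.140 (rho = 0.152), and r = 0.376 as deviations from the group means. The kinase and the phosphatase of the creatine cycle, Ckb and Alpl, had r = 0.384 (rho = 0.600), and r = 0.616 as such deviations. These values describe 10 libraries.

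Per length, Atp2a2 was the most abundant member. Levels between genes were compared as CPM per kilobase of merged exons in GENCODE M21, which counts all exons of a gene and is not known to be the authors' annotation. Atp2a2 was at 38.0 ± 3.735 in PexRAP-AKO and 36.75 ± 1.52 in Control, and Ckb was at 14.2 ± 2.88 in PexRAP-AKO and 14.9 ± 2.335 in Control (SD, n = 5 each, CPM per kilobase). By their median over the 10 libraries the order was Atp2a2 (37.5), Ckb (14.2), Gamt (9.06), Gk (7.28), Slc6a8 (5.36), Gatm (3.85) and Alpl (1.68). Atp2a2 was above Ckb in 10 of 10 libraries, and so were Ckb above Gamt, Slc6a8 above Gatm and Gatm above Alpl. Gamt was above Gk in 7 of 10 and Gk above Slc6a8 in 6 of 10, so the place of Gk among these neighbours varied between libraries. Differences in level between genes were not tested. The median of Ucp1 was 275.1.

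Each activity has several genes, and the members' share of them was taken per length, a comparison not planned in advance. Ckb was 83.7%, 98.9%, 86.5%, 90.9% and 74.0% of the summed creatine kinase level per length (Ckb, Ckm, Ckmt1 and Ckmt2) in PexRAP-AKO replicates 1, 2, 3, 5 and 6, and 56.8%, 97.6%, 71.75%, 94.97% and 21.5% in Control replicates 2, 3, 5, 7 and 8. Control replicate 8 was the only library in which Ckb made up the smaller part. The means, 86.8% in PexRAP-AKO and 68.5% in Control, did not differ beyond the spread (exact two-sided permutation p = 0.270, adjusted over 2 shares 0.270). Without Control replicate 8 the difference of 18.3 percentage points was 6.5.

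The muscle isoenzyme Ckm was the larger part of the rest in each library except PexRAP-AKO replicate 2, where it was 0%, and Control replicate 3, where it was 1.12% of the family. Ckm stood at 6.80, 0, 7.84, 4.40 and 8.90 CPM in PexRAP-AKO replicates 1, 2, 3, 5 and 6, and at 28.15, 0.50, 20.1, 1.95 and 131.1 CPM in Control replicates 2, 3, 5, 7 and 8. The count of 0 in PexRAP-AKO replicate 2 allows up to 3 counts, or 0.195 CPM. Its log2 fold change was -2.70 (SE 1.27, edgeR adjusted p = 0.351). Skeletal muscle markers summed to 256.0, 71.1, 266.9, 158.1 and 345.7 CPM in PexRAP-AKO replicates 1, 2, 3, 5 and 6, and to 917.5, 77.8, 786.9, 142.5 and 2231 CPM in Control replicates 2, 3, 5, 7 and 8. The 3 libraries richest in Ckm, Control replicates 8, 2 and 5, were also the 3 richest in these markers, and Myh4, a fast muscle myosin, was at 514 CPM in Control replicate 8. Of the 15 markers 13 were tested and 0 of those had a positive fold change, against 49.84% of all genes tested. The part of muscle in the Ckm result was not tested. The mitochondrial isoenzymes were near 0, with Ckmt2 at 1 to 22 counts a library and Ckmt1 at 0 to 1, and both were left out by the filter.

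The calcium pumps were compared likewise. Atp2a2 was 71.7%, 82.2%, 83.1%, 81.4% and 69.3% of the summed SERCA level per length (Atp2a2, Atp2a1 and Atp2a3) in PexRAP-AKO replicates 1, 2, 3, 5 and 6, and 65.2%, 81.2%, 66.35%, 79.6% and 47.9% in Control replicates 2, 3, 5, 7 and 8. Control replicate 8 was again the lowest library, and the ranges overlapped. The means were 77.5% in PexRAP-AKO and 68.0% in Control (exact two-sided permutation p = 0.175, adjusted over 2 shares 0.270), and the difference of 9.49 percentage points was 4.45 without Control replicate 8. Atp2a1, the pump of fast muscle, averaged 8.35 ± 4.37 CPM in PexRAP-AKO and 37.0 ± 41.0 CPM in Control (SD, n = 5 each, log2 fold change -2.14, edgeR adjusted p = 0.3495). Atp2a1 shares 763 exonic bases with Rabep2 on the opposite strand, whose reads cannot be told apart without stated strand. Atp2a3, known from blood and endothelial cells, averaged 45.7 ± 15.2 CPM in PexRAP-AKO and 43.6 ± 3.84 CPM in Control. It was highest in PexRAP-AKO replicate 6, at 69.6 CPM and 24.4% of the SERCA sum. That library had the lowest Atp2a2 share of its group (69.3%) and the most lymphocyte marker signal, and a link was not tested.

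**Figure D4:**
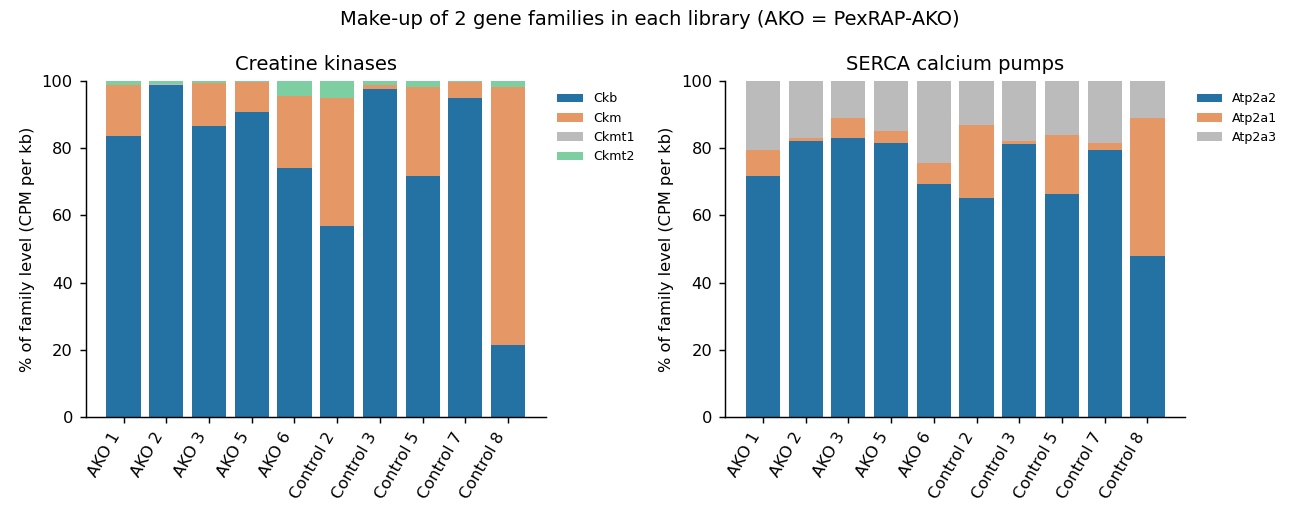
Share of each creatine kinase gene (left) and each SERCA pump gene (right) in the family's summed CPM per kilobase, in percent, for each library (AKO = PexRAP-AKO). Ckb is at 21.5% and Atp2a2 at 47.9% in Control replicate 8, the library with the most skeletal muscle marker signal.

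Other genes of the creatine pathway gave 0 calls. Of 5 listed, 3 were tested, 2 with a positive and 1 with a negative fold change. Beside Ckm these were Phospho1, a phosphatase named for phosphocholine, and Slc16a12, a carrier that exports creatine. Phospho1 averaged 3.64 ± 2.12 CPM in PexRAP-AKO and 2.15 ± 1.03 CPM in Control (SD, n = 5 each), with a log2 fold change of 0.72 (edgeR adjusted p = 0.454). Slc16a12 averaged 23.5 ± 5.47 CPM in PexRAP-AKO and 21.3 ± 6.18 CPM in Control, at 0.15 (adjusted p = 0.794).

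Of 27 listed genes of calcium handling, 24 were tested and 0 passed. There were 11 positive and 13 negative fold changes, with a median log2 fold change of -0.04. Casq1 and Ryr1 are genes of skeletal muscle. Casq1, a calcium store protein of fast muscle, was at -1.97 (edgeR adjusted p = 0.256) and Ryr1, the calcium release channel of skeletal muscle, at -1.69 (adjusted p = 0.293). Ryr1 averaged 4.56 ± 2.29 CPM in PexRAP-AKO and 14.8 ± 11.3 CPM in Control (SD, n = 5 each), with Control replicates 8, 5 and 2 the highest as for Ckm. Slc8b1, a mitochondrial calcium exchanger, averaged 48.1 ± 5.93 CPM in PexRAP-AKO and 56.0 ± 6.62 CPM in Control, at -0.22 (adjusted p = 0.315). Sln, the SERCA inhibitor sarcolipin, was at 0 to 3 counts a library.

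Of 18 listed genes of the glycerol lipid cycle, all were tested and 0 passed. There were 11 positive and 7 negative fold changes, with a median log2 fold change of 0.12. The groups did not overlap for 2 of the 18, Agpat2 and Abhd5, against 3.41% of all genes tested. Agpat2, which acylates lysophosphatidic acid, averaged 1958 ± 314 CPM in PexRAP-AKO and 1016 ± 243 CPM in Control (SD, n = 5 each). Its log2 fold change was 0.95 (SE 0.17), higher in 5 of 5 PexRAP-AKO libraries than in any Control library, and missed the threshold (edgeR adjusted p = 0.0657). Abhd5, the activator of the lipase ATGL, averaged 168 ± 6.385 CPM in PexRAP-AKO and 138 ± 9.57 CPM in Control, at 0.28 (adjusted p = 0.0996). DESeq2 called both, and called 439 genes in all, 4.27% of the 10287 to which it gave an adjusted p. Dgat2, which makes triglyceride, was at 0.32 (edgeR adjusted p = 0.311) and Acsl1, which activates fatty acids, at 0.21 (adjusted p = 0.359).

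Adrenergic receptors, the receptors of noradrenaline, gave 0 calls among 8 tested of 9 listed. There were 1 positive and 7 negative fold changes, with a median log2 fold change of -0.14. Adra1d averaged 8.55 ± 1.40 CPM in PexRAP-AKO and 10.8 ± 1.43 CPM in Control (SD, n = 5 each), at -0.34 (edgeR adjusted p = 0.248). Adra1b was at -0.46 (adjusted p = 0.344), Adra2c at -0.34 (adjusted p = 0.597) and Adrb1 at -0.12 (adjusted p = 0.729). The receptors named are those with the smallest unadjusted p. Few reads lie behind Adra1b, at 14 to 42 counts a library, and Adra2c, at 7 to 29.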

How the data were processed

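Raw read counts per gene of 10 libraries, 1 per labelled sample, were used as deposited by the authors. STAR 2.0.4b, Subread, featureCounts and edgeR are named in the submitters' processing notes; their settings, the build and the annotation are not stated there. The table has 40724 rows; where an identifier recurred (117 did, always with equal counts), its first row was used. GENCODE M21 (GRCm38) held 99.6% of the identifiers and supplied coordinates and exon lengths.

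Genes were filtered with filterByExpr (minimum count 10, minimum total 15), scaled by TMM and tested in edgeR 4.0.16 (R 4.3.3) by the quasi-likelihood F test (robust setting) over all 10 libraries without covariates. Standard errors came from the fold change and F, and 95% intervals used the test's degrees of freedom. Log2 CPM used a prior count of 2. Shares of a gene family were compared by exact permutation over libraries, whose smallest p at 5 against 5 is 0.00794. Alternatives used DESeq2 1.42.0, limma 3.58.1, other scalings and filters, covariates, the replicate number as a block and libraries left out.

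The members and lists were chosen with earlier results of these data known. Named genes were the members, Dhrs7b, up to 4 tested genes per pathway list and for the brown and beige list by p, up to 2 markers per cell type and the 3 genes most like each member. Sums of marker lists stand in for cell types. Samples of equal number (2, 3 and 5) are not stated to be pairs and were treated as unpaired. Their deviations from the group means had r of -0.021, -0.081 and 0.36. Of these, only replicate 5 was most like the sample of its own number. The lowest chi-square per degree of freedom between libraries of a group was 7.73, so none was treated as a rerun of another. It cannot show that they came from separate animals. The test was checked on simulated counts drawn with the spread fitted to these data. It recovered 62.1% of 1.5-fold, 82.1% of 2-fold and 96.9% of 4-fold changes. Of 171 calls 12 were false. These shares are over many genes and were not taken for the members.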

Additional observations from a re-analysis of the deposited data

Results flagged for a closer look

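Among 158 groups of 5 values of the genes and marker sums named, 12 had a library set well off from its group, where about 7.9 arise by chance. On the log2 CPM scale, PexRAP-AKO replicate 1 was low for Alpl (2.54, the next being 2.89) and Agpat2 (10.5), PexRAP-AKO replicate 2 was low for Ckm (-2.83) and PexRAP-AKO replicate 3 was low for Cdh5 (7.01), an endothelial marker. Control replicate 8 was low for Abhd5 (6.92) and Ppargc1a (4.17). Control replicate 5 was high for Nov (4.32), the gene most like Ckb, for Csf1r (8.22), a macrophage marker, and for Csf3r (2.53), a neutrophil marker, and low for Fabp4 (13.5). The epithelial markers, in log2 of summed CPM, were high in replicate 6 of PexRAP-AKO (6.24) and replicate 7 of Control (3.87).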

How the results depend on the processing

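No member was called under any of 21 alternatives. The sign of Gatm, Gamt, Slc6a8, Alpl and Gk never turned. That of Atp2a2 turned with total counts only (-0.0239) and with the brown and beige marker score as a covariate (-0.0347), and that of Ckb with single libraries left out (-0.172 to 0.0293; -0.26 to 0.0293 over all alternatives). Gk ran from 0.03 with the brown and beige score, which holds the genes most like Gk, to 1.79 without Control replicate 5. Dhrs7b stayed called (-2.14 to -1.96). The 15 genes called became 26 with no low-count filter, 439 with DESeq2, 109 with sample quality weights, 7 with the brown and beige score, 6 with the skeletal muscle score, 3 to 58 with 1 library left out (lowest without Control replicate 8, highest without PexRAP-AKO replicate 1) and 5 without PexRAP-AKO replicate 6 and Control replicate 8, an alternative chosen after seeing the data; the cause was not tested. Of the glycerol lipid list 2 genes were called with DESeq2, 1 with sample quality weights and 0 to 1 with 1 library left out. With the replicate number as a block (6 libraries), 3 genes and 0 members were called. DESeq2 gave no adjusted p for Alpl. The comparison of the shares of Ckb and Atp2a2 was itself not planned in advance. Leaving out libraries from these shares, and taking shares of counts, were also chosen after seeing the data. With 1 library left out, the difference of Ckb ran from 6.5 to 25.5 percentage points and that of Atp2a2 from 4.45 to 12.8. Depth limits Alpl most, at 55 to 154 counts a library.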

Other observations

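The summed markers of other cell types are given for the 10 libraries. Endothelial markers summed to 720.7 to 1010 CPM in PexRAP-AKO and 1007 to 1221 CPM in Control. Of 10 tested, 0 had a positive fold change, against 49.84% of all genes tested. The count was 2 of 8 for smooth muscle, 0 of 7 for Schwann cells and 6 of 8 for progenitors. It was 6 of 8 for macrophages, 1 of 3 for neutrophils and 7 of 7 for lymphocytes. Genes of the same list mark the same cells, so their signs are not separate observations. Smooth muscle markers summed to 729.1 to 1002 CPM in PexRAP-AKO and 965.9 to 1137 CPM in Control. Schwann cell markers summed to 126.5 to 158.8 CPM in PexRAP-AKO and 158.7 to 233.0 CPM in Control. Progenitor markers summed to 1976 to 4623 CPM in PexRAP-AKO and 2228 to 3242 CPM in Control, and macrophage markers to 485.8 to 1387 CPM in PexRAP-AKO and 584.9 to 1155 CPM in Control. Neutrophil markers summed to 12.3 to 30.3 CPM in PexRAP-AKO and 17.4 to 22.6 CPM in Control. Adipocyte markers summed to 38040 to 46850 CPM in PexRAP-AKO and 38130 to 49400 CPM in Control.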
